A study of Mus musculus with 28 samples.

Results

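Notch signaling was followed in developing mouse molars through 10 genes, namely the receptors Notch1, Notch2, and Notch3, the ligands Jag1, Jag2, and Dll1, the receptor-modifying enzyme Lfng, and the target genes Hes1, Hey1, and Heyl. The 10 genes were taken by symbol from the 52636 genes of a table of RNAseq counts, using a GRCm38 annotation, and all 10 passed the filter on low counts that left 19101 genes for the tests. The counts come from 21 single tooth germs, which are 7 labelled E13.5 (called E13, bud stage), 7 labelled E14.5 (called E14, cap stage), and 7 labelled E16.5 (called E16, bell stage). All are wild type first molars of C57BL/6JOlaHsd mice with no treatment, dissected with little surrounding tissue, and the groups are defined by stage. The side was not balanced over the stages, with 4 left and 3 right teeth at E13 and at E16, and 2 left and 5 right at E14. The teeth came from 6 embryos at E14 and from 5 at E16, so some teeth of these stages share an embryo, and at E13 each tooth has its own embryo number except for 1 left tooth whose embryo is not given. A second table, with estimated counts, also holds 6 teeth of E15.

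In the Notch pathway a membrane-bound ligand on one cell binds a Notch receptor on its neighbor. The bound receptor is cut by an ADAM protease and then by gamma-secretase, and its freed intracellular domain joins the DNA-binding protein RBPJ to switch on targets such as the Hes and Hey genes, which encode basic helix-loop-helix repressors. Fringe enzymes such as Lfng add a sugar to the receptor and thereby shift its response from Jagged toward Delta-like ligands. In teeth, Notch genes are known from the layers of the dental epithelium, Jag2 is required for normal crown shape, and outside the epithelium the same genes serve blood vessels, with Notch3 and Heyl known from mural cells and Hey2 from arterial endothelium.

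RNA was measured for whole teeth, so that fewer cells of a type and less RNA per cell cannot be told apart in any of the values below. Levels are counts-per-million (CPM) after scaling of the library totals by the TMM method, which adjusts for differences in composition, and they are given as the lowest, median, and highest tooth. Differences are log2 fold changes with their standard error (SE) as fitted by edgeR and its quasi-likelihood F test, and their p values were adjusted over all genes after Benjamini and Hochberg, and a gene is said to rise or fall where the adjusted p is below 0.05.

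The promoters of Lfng, Notch1, and Notch2 are shown because Lfng and Notch1 rose at the step from bud to cap and Notch2 at the step from cap to bell, and because Lfng was the only one of the 7 members with a promoter at hand that held the RBPJ core letters. They are the RefSeq sequences of GRCm38.p6, read 5′ to 3′ on the strand of the gene from 250 bases before to 50 bases after the start of transcription. The Lfng window is chr5:140607091-140607390 on the + strand, the Notch1 window is chr2:26503773-26504072 on the - strand, and the Notch2 window is chr3:98013288-98013587 on the + strand. Capitals mark TGGGAA, on the strand shown or as TTCCCA on the other strand.
Lfng: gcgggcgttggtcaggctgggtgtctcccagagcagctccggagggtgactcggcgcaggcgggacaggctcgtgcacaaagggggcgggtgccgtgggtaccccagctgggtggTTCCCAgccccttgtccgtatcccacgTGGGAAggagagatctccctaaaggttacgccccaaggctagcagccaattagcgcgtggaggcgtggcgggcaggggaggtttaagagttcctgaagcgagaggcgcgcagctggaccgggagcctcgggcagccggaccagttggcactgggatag
Notch1: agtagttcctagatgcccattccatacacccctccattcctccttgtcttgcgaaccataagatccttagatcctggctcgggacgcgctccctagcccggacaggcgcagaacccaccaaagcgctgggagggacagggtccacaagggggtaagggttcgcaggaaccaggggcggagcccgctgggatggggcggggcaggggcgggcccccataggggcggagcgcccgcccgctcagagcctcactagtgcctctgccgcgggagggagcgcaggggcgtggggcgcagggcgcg
Notch2: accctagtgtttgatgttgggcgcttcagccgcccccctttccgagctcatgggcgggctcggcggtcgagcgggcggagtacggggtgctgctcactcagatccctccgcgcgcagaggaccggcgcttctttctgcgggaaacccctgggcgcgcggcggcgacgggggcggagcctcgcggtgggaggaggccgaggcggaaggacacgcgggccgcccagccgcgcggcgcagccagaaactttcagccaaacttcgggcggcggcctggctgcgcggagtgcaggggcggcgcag

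Promoters of 7 of the 10 members, in 8 windows because Dll1 has a pair of them, were in the promoter table, and those of Hes1, Hey1, and Heyl were not. TGGGAA was searched on both strands, and the Lfng promoter held it 2 times, beginning at positions -135 and -108 from the start of transcription. The second of these is preceded by G and thus also holds the longer GTGGGAA, which contains TGGGAA and overlaps it entirely. The other windows of Notch1, Notch2, Notch3, Jag1, Jag2, and Dll1 held neither. Among 32851 mouse promoters of the same length, 25.6% held TGGGAA and 6.38% held GTGGGAA, so that the letters by themselves are common.

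Library totals ranged from 17814073 to 27115729 counts with a median of 23827447, of which 74.1% to 91.2% fell on protein-coding genes. The E16 left tooth of embryo 3 stood apart from all others. Its root mean square log2 distance to the other E16 teeth was 0.669, whereas each of the other E16 teeth was 0.220 to 0.313 from the rest of its stage, and its distances to E13 and E14 were larger still at 0.819 and 0.784. It had the smallest total and the highest number of genes with a count (27271, against 22701 to 26408 in the other 20 teeth). Its summed CPM was 1310 for 5 dental epithelium markers, 916 for 6 dental mesenchyme markers, and 148 for 7 endothelium markers, each below all other E16 teeth. Differences of the Notch members with E16 are therefore given with and without this tooth. The E16 right tooth of embryo 7 was unusual in another way, with the lowest protein-coding share (74.1%) and the lowest TMM factor (0.850). It also had the largest share of counts on its 10 highest genes (23.8%). Its distance to the rest of its stage was 0.248.

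The label of a tooth germ was met by its markers in every stage, with the dental mesenchyme list (Msx1, Pax9, Barx1, Lhx6, Prrx1, Twist1) at 2731 to 2923 CPM at E13 and 916 to 1622 at E16. Of other tissues, a muscle list (Myod1, Myog, Myh3, Actc1, Tnnt1) was at 253 CPM in 1 tooth of E13 and at most 44.7 in the other 6. A cartilage list (Col2a1, Acan, Col9a1, Matn1) was at 142 to 170 CPM at E13 and 7.40 to 25.8 at E16. This sum was mostly Col2a1, with 2635 to 3882 counts per tooth at E13 and 136 to 600 at E16. Acan, Col9a1, and Matn1 had at most 51 counts in a tooth of E13. Acan went the other way, from 2 to 13 counts at E13 to 14 to 78 at E16. An osteoblast list (Runx2, Sp7, Ibsp, Bglap, Dmp1) was higher than the cartilage list, at 365 to 705 CPM at E13, 391 to 1145 at E14, and 462 to 738 at E16. Within the osteoblast list, Ibsp ran from 445 to 13616 counts between the teeth of E14. At E13 Runx2 had 6286 to 9868 counts per tooth, Sp7 901 to 2091, Ibsp 482 to 3633, and Bglap and Dmp1 at most 16. The paper's references on tooth genes include a report on the teeth of Runx2 null mice, so this sum cannot be read as bone alone.

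Between the bud and the cap stage, 4 of the 10 members rose and none fell. These were the receptor Notch1, the fringe enzyme Lfng, and the targets Hes1 and Heyl. Of all genes tested, 19.7% passed in this comparison, 11.3% being higher and 8.47% lower at E14, and the median log2 fold change was 0.28 over the members and -0.01 over all genes. From the cap to the bell stage Notch2 rose and Hes1, Hey1, and Jag1 fell, against 28.1% of all genes (15% higher, 13.1% lower). Without the E16 left tooth of embryo 3, 7 members passed in the latter comparison, 5 higher and 2 lower, against 34.3% of all genes (18.5% higher, 15.8% lower). Between E13 and E16, 5 members were higher (Notch1, Notch2, Jag2, Heyl, Lfng) and Jag1 was lower, against 41.3% of all genes (21.6% higher, 19.6% lower). The numbers were the same without that tooth, against 48.7% of all genes (25.5% higher, 23.1% lower).

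**Figure D1:**
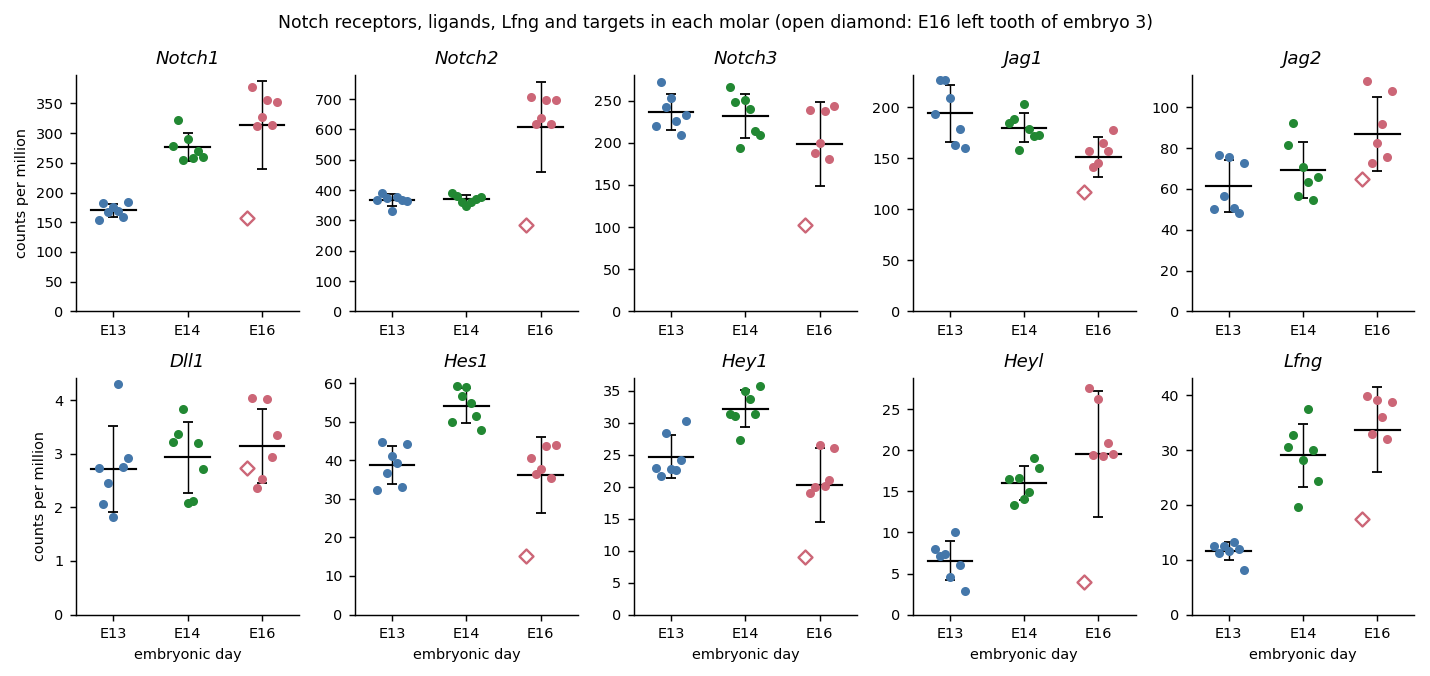
Counts-per-million (vertical axis, from 0, scaled by TMM) of the 10 Notch genes in each tooth at E13, E14, and E16, with 7 teeth per stage. Horizontal lines give the mean and error bars the SD, and the open diamond is the E16 left tooth of embryo 3, which is the lowest E16 tooth in every panel except Dll1.

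The receptors followed different courses. Notch1 (ENSMUSG00000026923, chromosome 2, 26457903 to 26516663 in GRCm38) was at 154, 169, and 183 CPM at E13, at 255, 270, and 322 CPM at E14, and at 156, 328, and 378 CPM at E16. All E14 teeth were above all E13 teeth, and so were 6 of the 7 E16 teeth, the lowest E16 value being that of the left tooth of embryo 3. Notch1 rose by 0.70 ± 0.12 (log2 fold change ± SE, adjusted p = 0.000199, edgeR) between E13 and E14, which is 1.62-fold. From E14 to E16 the difference was 0.18 ± 0.12 (adjusted p = 0.286, edgeR). Without the tooth that stood apart it was 0.31 ± 0.06 (adjusted p = 0.000173, edgeR), with 4 of 6 E16 teeth above all of E14. Over the whole interval from E13 to E16 Notch1 was 1.84-fold higher (log2 0.88 ± 0.12, adjusted p = 2.76e-06, edgeR), and without that tooth the log2 fold change was 1.01 ± 0.06 (adjusted p = 4.65e-13, edgeR).

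Notch2 (ENSMUSG00000027878, chromosome 3, 98013527 to 98150361) was at 330, 368, and 390 CPM at E13 and at 348, 369, and 391 CPM at E14. The ranges of these stages nearly coincided, and the log2 fold change was 0.01 ± 0.13 (adjusted p = 0.977, edgeR). At E16 it was at 285, 639, and 708 CPM, with 6 of 7 teeth above every tooth of the earlier stages and the left tooth of embryo 3 below them all. Notch2 rose by 0.72 ± 0.13 from E14 to E16 (1.65-fold, adjusted p = 9.96e-05, edgeR), and by 0.86 ± 0.05 without that tooth (adjusted p = 7.14e-13, edgeR). Compared with E13 it was higher by 0.73 ± 0.13 (adjusted p = 4.79e-05, edgeR), and by 0.87 ± 0.05 without it (adjusted p = 1.51e-13, edgeR). With all teeth, Notch1 was thus called at the step from bud to cap and Notch2 at the step from cap to bell. Without the E16 left tooth of embryo 3, Notch1 was called at the step from cap to bell as well (0.31 ± 0.06, adjusted p = 0.000173, edgeR).

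Notch3 (ENSMUSG00000038146, chromosome 17, 32120820 to 32166852) was at 209, 233, and 272 CPM at E13, at 194, 240, and 266 CPM at E14, and at 102, 200, and 243 CPM at E16. The stages overlapped broadly. None of its differences passed, with -0.03 ± 0.13 at the first step (adjusted p = 0.902, edgeR) and -0.22 ± 0.13 at the second (adjusted p = 0.215, edgeR). The latter was -0.10 ± 0.08 without the E16 left tooth of embryo 3 (adjusted p = 0.402, edgeR). From E13 to E16 it differed by -0.25 ± 0.13 (adjusted p = 0.126, edgeR), or by -0.13 ± 0.08 without that tooth (adjusted p = 0.206, edgeR).

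Of the 3 ligand members, Jag1 and Jag2 differed between E13 and E16 and Dll1 was not called. Jag1 (ENSMUSG00000027276, chromosome 2, 137081456 to 137116644), the most abundant of them, was at 160, 193, and 227 CPM at E13, at 159, 179, and 204 CPM at E14, and at 117, 157, and 178 CPM at E16. The ranges overlapped at each step, yet 5 of 7 E16 teeth were below all E13 teeth. Jag1 differed by -0.11 ± 0.09 between E13 and E14 (adjusted p = 0.445, edgeR). It fell by 0.25 on the log2 scale from E14 to E16 (SE 0.09, adjusted p = 0.0474, edgeR), but this call was close to the threshold and was lost in 18 of 21 fits that left out 1 tooth and in 6 of 8 other alternatives, its adjusted p lying between 0.0297 and 0.130. Without the tooth that stood apart the difference was -0.18 ± 0.08 (adjusted p = 0.0855, edgeR). From E13 to E16 Jag1 was 1.28-fold lower (log2 -0.36 ± 0.09, adjusted p = 0.00316, edgeR), and without that tooth the log2 fold change was -0.29 ± 0.08 (adjusted p = 0.00381, edgeR).

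Jag2 (ENSMUSG00000002799, chromosome 12, 112907819 to 112929776) was at 48.0, 56.5, and 76.7 CPM at E13, at 54.8, 65.6, and 92.4 CPM at E14, and at 64.7, 82.4, and 113 CPM at E16. Neighboring stages overlapped, whereas 4 of 7 E16 teeth were above all E13 teeth. It differed by 0.17 ± 0.14 (adjusted p = 0.424, edgeR) at the first step and by 0.32 ± 0.14 (adjusted p = 0.0915, edgeR) at the second. The second difference passed without the E16 left tooth of embryo 3 (0.40 ± 0.13, adjusted p = 0.0227, edgeR) and without the E14 right tooth of embryo 2 (0.42 ± 0.14, adjusted p = 0.0284, edgeR). Over both steps Jag2 rose by 0.50 ± 0.14 (1.41-fold, adjusted p = 0.00654, edgeR), and by 0.57 ± 0.13 without the E16 left tooth of embryo 3 (adjusted p = 0.00102, edgeR), so that the 2 Jagged genes moved in opposite directions between the bud and the bell stage.

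Dll1 (ENSMUSG00000014773, chromosome 17, 15367354 to 15376872), a Delta-like ligand, was weakly expressed, with 1.82, 2.73, and 4.30 CPM at E13, 2.08, 3.20, and 3.83 CPM at E14, and 2.36, 2.94, and 4.05 CPM at E16. These levels rest on 39 to 105 counts per tooth. The stages overlapped almost entirely, and no difference was called. The log2 fold change was 0.11 ± 0.20 (adjusted p = 0.758, edgeR) at the first step and 0.10 ± 0.20 (adjusted p = 0.758, edgeR) at the second. Without the tooth that stood apart, the second difference was 0.14 ± 0.20 (adjusted p = 0.646, edgeR).

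Lfng (ENSMUSG00000029570, chromosome 5, 140607320 to 140615545), whose promoter is printed above, had the largest fold change of the members between bud and cap, close to that of Heyl. It was at 8.07, 11.9, and 13.2 CPM at E13, at 19.7, 30.1, and 37.4 CPM at E14, and at 17.5, 36.1, and 39.8 CPM at E16. Every tooth of E14 and of E16 was above every tooth of E13. Lfng rose 2.50-fold from E13 to E14 (log2 1.32 ± 0.16, adjusted p = 1.04e-06, edgeR) and differed by 0.22 ± 0.15 from E14 to E16 (adjusted p = 0.302, edgeR), or by 0.35 ± 0.11 without the E16 left tooth of embryo 3 (adjusted p = 0.0216, edgeR). At E16 it was 2.91-fold above E13 (log2 1.54 ± 0.16, adjusted p = 1.60e-08, edgeR), and without that tooth the log2 fold change was 1.66 ± 0.12 (adjusted p = 1.68e-11, edgeR).

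Of the targets, Hes1 and Hey1 were highest at the cap stage, whereas Heyl was not lower at the bell stage except in 1 tooth. Hes1 (ENSMUSG00000022528, chromosome 16, 30064384 to 30067796), which keeps progenitor cells from differentiating in many tissues, was at 32.3, 39.2, and 44.6 CPM at E13, at 47.9, 54.8, and 59.2 CPM at E14, and at 15.1, 37.8, and 44.0 CPM at E16. All E14 teeth were above all teeth of both other stages. Hes1 rose by 0.48 ± 0.15 between E13 and E14 (1.40-fold, adjusted p = 0.0228, edgeR). This call was lost when the E13 right tooth of embryo 1 was left out (adjusted p = 0.05002, edgeR) or the E13 right tooth of embryo 9 (adjusted p = 0.0512, edgeR). From E14 to E16 it fell by 0.58 on the log2 scale (SE 0.15, adjusted p = 0.00418, edgeR), and without the tooth that stood apart by 0.43 (SE 0.08, adjusted p = 0.000151, edgeR). Between E13 and E16 the difference was -0.10 ± 0.15 (adjusted p = 0.626, edgeR), and without that tooth its sign changed to 0.05 ± 0.08 (adjusted p = 0.666, edgeR).

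Hey1 (ENSMUSG00000040289, chromosome 3, 8663359 to 8667256) was at 21.7, 22.9, and 30.3 CPM at E13, at 27.2, 31.4, and 35.7 CPM at E14, and at 9.05, 20.2, and 26.5 CPM at E16. Of the E14 teeth, 6 of 7 were above all E13 teeth, and all 7 were above all E16 teeth. The difference between E13 and E14 was 0.38 ± 0.15 (adjusted p = 0.0703, edgeR) and passed when the E16 left tooth of embryo 3 was left out of the fit (0.38 ± 0.09, adjusted p = 0.00247, edgeR). Hey1 fell by 0.67 on the log2 scale from E14 to E16 (SE 0.15, adjusted p = 0.00129, edgeR), which is 1.59-fold, and by 0.53 without that tooth (SE 0.10, adjusted p = 0.000105, edgeR). Between E13 and E16 it differed by -0.29 ± 0.15 (adjusted p = 0.131, edgeR), or by -0.14 ± 0.10 without it (adjusted p = 0.22, edgeR).

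Heyl (ENSMUSG00000032744, chromosome 4, 123233556 to 123249875) was the weakest of the target members and varied widely between teeth, with a coefficient of variation of 36.1% at E13. It was at 2.82, 7.14, and 10.1 CPM at E13, at 13.4, 16.48, and 19.0 CPM at E14, and at 3.91, 19.6, and 27.6 CPM at E16. All E14 teeth were above all E13 teeth, and 6 of 7 E16 teeth were above all E14 teeth, the exception being the left tooth of embryo 3. Heyl rose 2.43-fold between E13 and E14 (log2 1.28 ± 0.27, adjusted p = 0.00149, edgeR). From E14 to E16 it differed by 0.29 ± 0.26 (adjusted p = 0.445, edgeR), and without that tooth it rose by 0.48 ± 0.17 (adjusted p = 0.0297, edgeR), in the opposite direction to Hes1 and Hey1. It was 2.97-fold higher at E16 than at E13 (log2 1.57 ± 0.27, adjusted p = 5.27e-05, edgeR), and without that tooth the log2 fold change was 1.76 ± 0.18 (adjusted p = 9.25e-09, edgeR).

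**Figure D2:**
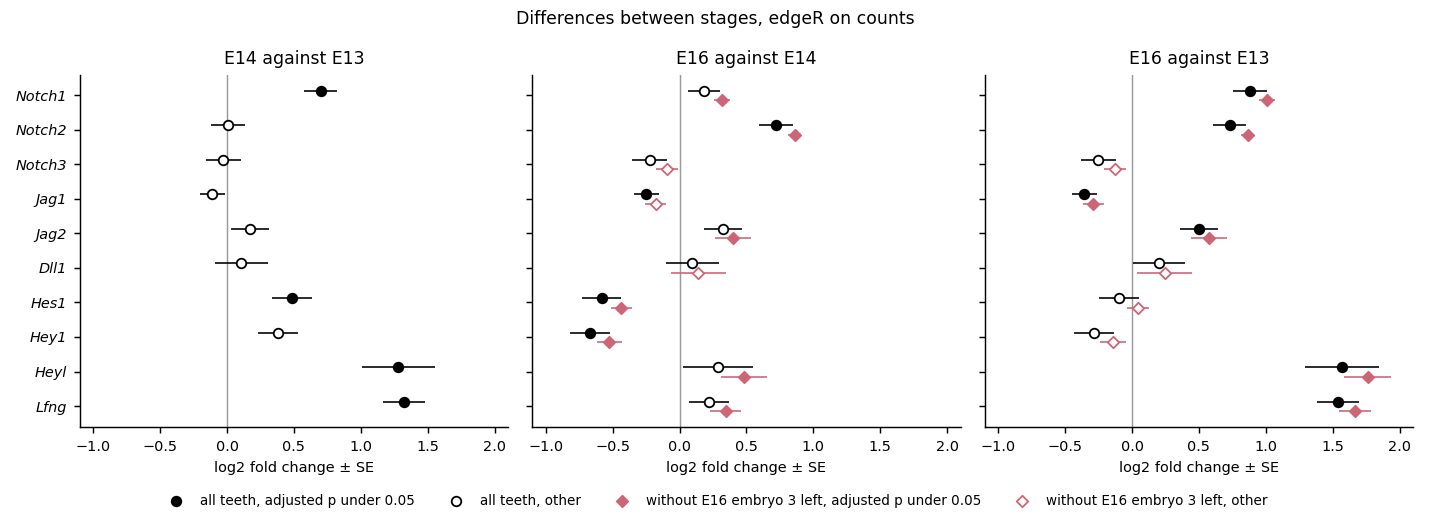
Log2 fold changes (horizontal axis) with their SE for the 10 Notch genes in the 3 comparisons of stages, from edgeR. Circles are fits with all 21 teeth, diamonds fits without the E16 left tooth of embryo 3, and filled symbols have an adjusted p under 0.05, so that Lfng and Heyl stand out at the first step and Notch2 at the second.

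To compare the members with each other, CPM were divided by the length of the exons of each gene in kilobases. On this scale the level of Notch2 was 34.1 ± 1.7 CPM per kilobase (SD, n = 7) at E13, Jag1 33.3 ± 4.8, and Notch3 29.3 ± 2.6, and the ranges of these 3 genes overlapped. Hes1 followed at 19.0 ± 2.4 and Notch1 at 12.0 ± 0.78, and the ranges of Notch3, Hes1, and Notch1 were separate from each other. With the longest transcript as length, however, the ranges of Notch3 (26.1 to 34.0) and Hes1 (22.0 to 30.4) overlapped. Jag2 at 8.83 ± 1.85 overlapped with both Notch1 and Hey1 (7.57 ± 1.02). Lfng was lower at 4.63 ± 0.67, and Heyl at 1.29 ± 0.46 overlapped with Dll1 at 0.646 ± 0.19, the lowest of the members. The order was the same at E14 except that Lfng had passed Jag2 and Hey1, with 11.6 ± 2.3, 9.96 ± 1.95, and 9.86 ± 0.88 CPM per kilobase, although the ranges of Lfng and Jag2 overlapped, as did those of Jag2 and Hey1. This order depended on the length used. With the longest transcript, Hes1 was highest at E14 (36.9 ± 3.1), and Notch1 (29.1 ± 2.5) was just above Notch3 (28.9 ± 3.3). Lfng (12.6 ± 2.5) was then below Jag2 (13.6 ± 2.7) and Hey1 (13.3 ± 1.2). At E16 Notch2 was at 56.5 ± 13.7 and Jag1 at 26.0 ± 3.4 CPM per kilobase, and Notch1 at 22.0 ± 5.2 was above Hes1 at 17.7 ± 4.8. Of the neighbors in the order only Jag2 and Hey1 had separate ranges, the left tooth of embryo 3 being low in most genes. With the longest transcript, Notch1 (33.1 ± 7.7) was instead above Jag1 (27.0 ± 3.5) at E16, with overlapping ranges.

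The shares of the genes within a tooth do not depend on the scaling between libraries. Of the per-kilobase counts of the 3 receptors, Notch1 made up 15.02% to 17.0% at E13, 22.0% to 25.6% at E14, and 20.7% to 22.0% at E16. Notch2 made up 41.2% to 47.8%, 38.6% to 44.5%, and 52.8% to 56.4% at the 3 stages, and Notch3 made up 36.4% to 42.1%, 31.8% to 37.1%, and 22.0% to 25.3%. The E16 teeth were thus separate from all earlier teeth by a larger share of Notch2 and a smaller share of Notch3. The left tooth of embryo 3, in which the CPM of all receptors was low, had a share of Notch2 of 52.8% and of Notch1 of 22.0%, so that its receptors were low in near proportion.

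Among the ligands, Jag1 made up 71.2% to 81.7% at E13, 69.7% to 77.4% at E14, and 61.1% to 70.0% at E16, while Jag2 went from 17.0% to 27.0% at E13 to 28.2% to 36.7% at E16. The E13 and E16 ranges did not overlap for either gene. Dll1 remained at a mean of 1.57% to 1.90%. Among the targets the mean share of Hes1 was 68.1%, 67.1%, and 64.2% at the 3 stages, and the mean share of Heyl was 4.70%, 7.97%, and 13.2%. Without the left tooth of embryo 3, the E16 share of Heyl lay between 11.5% and 17.4%, above all E14 teeth (6.35% to 9.63%), whereas in that tooth it was 6.98%.

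**Figure D3:**
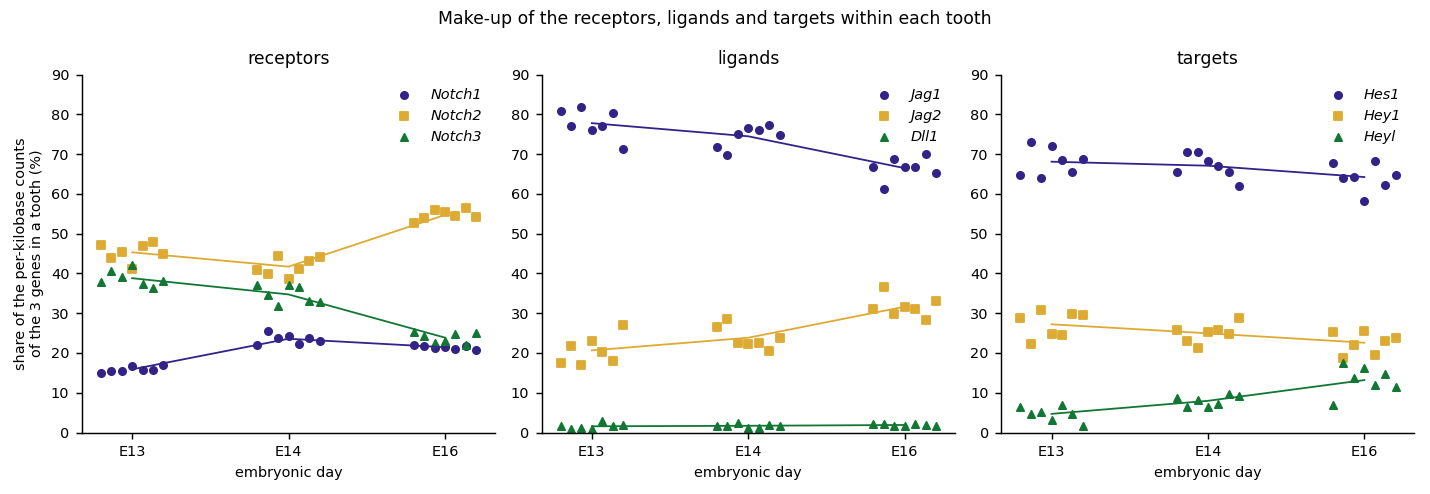
Share (%) of each gene in the per-kilobase counts of the receptors, ligands, and target genes within each tooth, with 7 teeth at each of E13, E14, and E16 as points and lines through the means. With exon length as used here, Notch2 rises to more than 50% of the receptors in every E16 tooth (lowest 48.1% with the longest transcript as length). Notch3 declines, and Jag2 gains on Jag1.

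Markers of cell types changed between the stages together with these genes. All 5 dental epithelium markers (Cdh1, Epcam, Krt14, Krt5, Trp63) rose at both steps, and their summed CPM was 505 to 771 at E13, 879 to 1159 at E14, and 1310 to 2317 at E16. Relative to this sum in the same tooth, Notch1 was at 283 ± 37 per 1000 (SD, n = 7) at E13, 278 ± 14 at E14, and 156 ± 19 at E16. Corresponding values of Lfng were 19.6 ± 5.1, 29.5 ± 7.0, and 16.9 ± 2.5, and those of Notch2 were 617 ± 113, 374 ± 32, and 303 ± 42. Of the 6 dental mesenchyme markers 2 fell at the first step and 4 at the second, and relative to their sum Notch2 went the other way, from 130 ± 7 per 1000 at E13 to 147 ± 12 at E14 and 453 ± 91 at E16. Relative to the endothelium markers Notch2 was at 1206 ± 65, 1024 ± 63, and 1650 ± 178 per 1000, so that the direction of such a ratio depended on the list it was set against. All 6 markers of the enamel knot, the signaling center of the cap stage, rose between E13 and E14, from a summed 15.1 to 26.0 CPM to 93.5 to 138 CPM. At E16 the sum was 98.0 CPM in the left tooth of embryo 3 and 214 to 282 CPM in the other 6. These genes did not move together after E14. Fgf4 had 122 to 270 counts per tooth at E14 and 32 to 88 at E16. Shh had 1088 to 1633 and 1083 to 5546, and Edar 118 to 224 and 308 to 682. Of 6 mural cell markers 3 rose and none fell between E13 and E14 (summed CPM 344 to 409 and 437 to 506), and relative to them Heyl was at 18.0 ± 6.6 per 1000 at E13 and 34.5 ± 5.3 at E14. None of 7 endothelium markers passed at either step with all teeth (summed CPM 261 to 328 at E13, 328 to 394 at E14, and 148 to 468 at E16). The value of 148 is that of the E16 left tooth of embryo 3. In the other 6 E16 teeth the sum was 394.2 to 468 CPM, above the highest E14 tooth (393.8). The part of these cell types in the differences of the Notch genes was not tested.

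Annotated genes overlap Notch1, Notch2, Notch3, Jag2, and Dll1, and since the strand setting of the counting is not given in the sources used here, reads of a gene and its antisense partner cannot be told apart. The antisense partners of Notch1, Notch3, and Dll1 had at most 59, 34, and 30 counts in any tooth. Within Notch2, Gm42819 and Gm42820, which the annotation classes as yet to be established by experiment, lie on the same strand and had median counts of 957 and 539 at E16 against 382 and 248 at E14.

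The other genes of the pathway were described through a list of 40 genes, of which 38 passed the filter on low counts, Dll3 and Hes5 having at most 21 and 15 counts in a tooth. Between E13 and E14, 6 of the 38 rose and 3 fell, against 11.3% higher and 8.47% lower among all genes. Between E14 and E16, 5 rose and 2 fell, against 15% and 13.1% of all genes, and without the E16 left tooth of embryo 3, 10 rose and 4 fell, against 18.5% and 15.8%. Between E13 and E16, 9 rose and 4 fell, against 21.6% and 19.6% of all genes, or 18 and 6 without that tooth, against 25.5% and 23.1%. The median log2 fold changes over the list were 0.09, -0.00, and 0.09 in the 3 comparisons. By role, 1 of 9 genes for sheddases and gamma-secretase, 0 of 6 for the nuclear complex, 4 of 9 for receptor trafficking and turnover, and both further targets passed between E13 and E14. Not called at either step was Rbpj, the DNA-binding partner of all receptors, which was at 91.0 to 108 CPM at E13 and 91.3 to 112 CPM at E14 with a difference of 0.07 ± 0.08 (adjusted p = 0.591, edgeR).

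The largest difference was that of a further target, Hey2. It was at 1.31, 1.88, and 2.93 CPM at E13, at 6.23, 6.83, and 9.69 CPM at E14, and at 8.01, 11.7, and 14.7 CPM at E16. All E14 teeth were above all E13 teeth. Hey2 rose by 1.81 ± 0.18 at the first step (adjusted p = 4.49e-08, edgeR) and by 0.71 ± 0.16 at the second (adjusted p = 0.00148, edgeR), or 0.80 ± 0.15 without the tooth that stood apart (adjusted p = 0.000138, edgeR), the latter step being one at which its relative Hey1 fell. Another target, Nrarp, an inhibitor of Notch signaling, rose by 0.57 ± 0.15 between E13 and E14 (adjusted p = 0.011, edgeR).

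Genes that act on the turnover of the receptor moved in both directions. Fbxw7, the ubiquitin ligase subunit that marks the Notch intracellular domain for degradation, was at 42.5, 46.4, and 52.9 CPM at E13, at 59.4, 74.2, and 80.7 CPM at E14, and at 37.2, 42.8, and 48.9 CPM at E16. All E14 teeth were above all teeth of the other stages, as for Hes1. It rose by 0.65 ± 0.08 (adjusted p = 1.04e-06, edgeR) and then fell by 0.75 on the log2 scale (SE 0.08, adjusted p = 4.40e-08, edgeR). Dtx4, a Deltex ubiquitin ligase, did the reverse, being at 15.6 to 22.0 CPM at E13, 11.2 to 14.3 at E14, and 12.0 to 26.5 at E16, and its log2 fold changes were -0.61 ± 0.13 (adjusted p = 0.00136, edgeR) and 0.71 ± 0.13 (adjusted p = 0.000144, edgeR). Its relative Dtx1 fell by 0.72 at the first step (SE 0.14, adjusted p = 0.000752, edgeR), and Dtx3l rose by 0.81 ± 0.15 at the second (adjusted p = 0.000144, edgeR). Numb, which directs the receptor to endocytosis, was higher at E16 than at E13 by 0.34 ± 0.06 (adjusted p = 0.000126, edgeR). Without the E16 left tooth of embryo 3, the log2 fold changes with E16 were -0.73 ± 0.07 for Fbxw7, 0.83 ± 0.09 for Dtx4, 0.91 ± 0.13 for Dtx3l, and 0.38 ± 0.06 for Numb, and all of them passed.

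Of the enzymes that act on the receptors and ligands, Pofut1, which adds the fucose that Lfng extends, fell by 0.40 on the log2 scale from E13 to E14 (SE 0.08, adjusted p = 0.000555, edgeR), while Lfng rose. The other fringe genes Mfng and Rfng differed by 0.35 ± 0.13 (adjusted p = 0.0619, edgeR) and 0.19 ± 0.11 (adjusted p = 0.222, edgeR). Psenen, a gamma-secretase subunit, rose by 0.49 ± 0.16 from E13 to E14 (adjusted p = 0.0275, edgeR). Aph1b, another subunit, rose by 0.57 ± 0.11 from E14 to E16 (adjusted p = 0.000339, edgeR), and Neurl1b, a ligase for ligands, was higher at E16 than at E13 by 0.97 ± 0.18 (adjusted p = 8.80e-05, edgeR). Both also passed without the tooth that stood apart, with 0.51 ± 0.10 for Aph1b and 1.08 ± 0.16 for Neurl1b.

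Dlk1, a noncanonical ligand and imprinted gene, had the largest fall of the list. It was at 150, 197, and 320 CPM at E13, at 104, 143, and 268 CPM at E14, and at 18.9, 59.1, and 107 CPM at E16. The stages overlapped at the first step, and the highest E16 tooth was just above the lowest E14 tooth. Dlk1 fell by 1.33 on the log2 scale from E14 to E16 (SE 0.25, adjusted p = 0.000246, edgeR), and Dlk2 was lower at E16 than at E13 by a log2 of -0.53 ± 0.19 (adjusted p = 0.0254, edgeR). Without the tooth that stood apart Dlk1 still fell, by 1.16 (SE 0.20, adjusted p = 6.16e-05, edgeR), whereas the call of Dlk2 was lost (-0.42 ± 0.18, adjusted p = 0.0531, edgeR). The endothelial ligand Dll4 was at 6.44 to 9.86 CPM at E13 and 9.09 to 12.5 CPM at E14 (0.44 ± 0.16, adjusted p = 0.0562, edgeR), and the receptor Notch4 differed by 0.28 ± 0.12 (adjusted p = 0.12, edgeR).

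**Figure D4:**
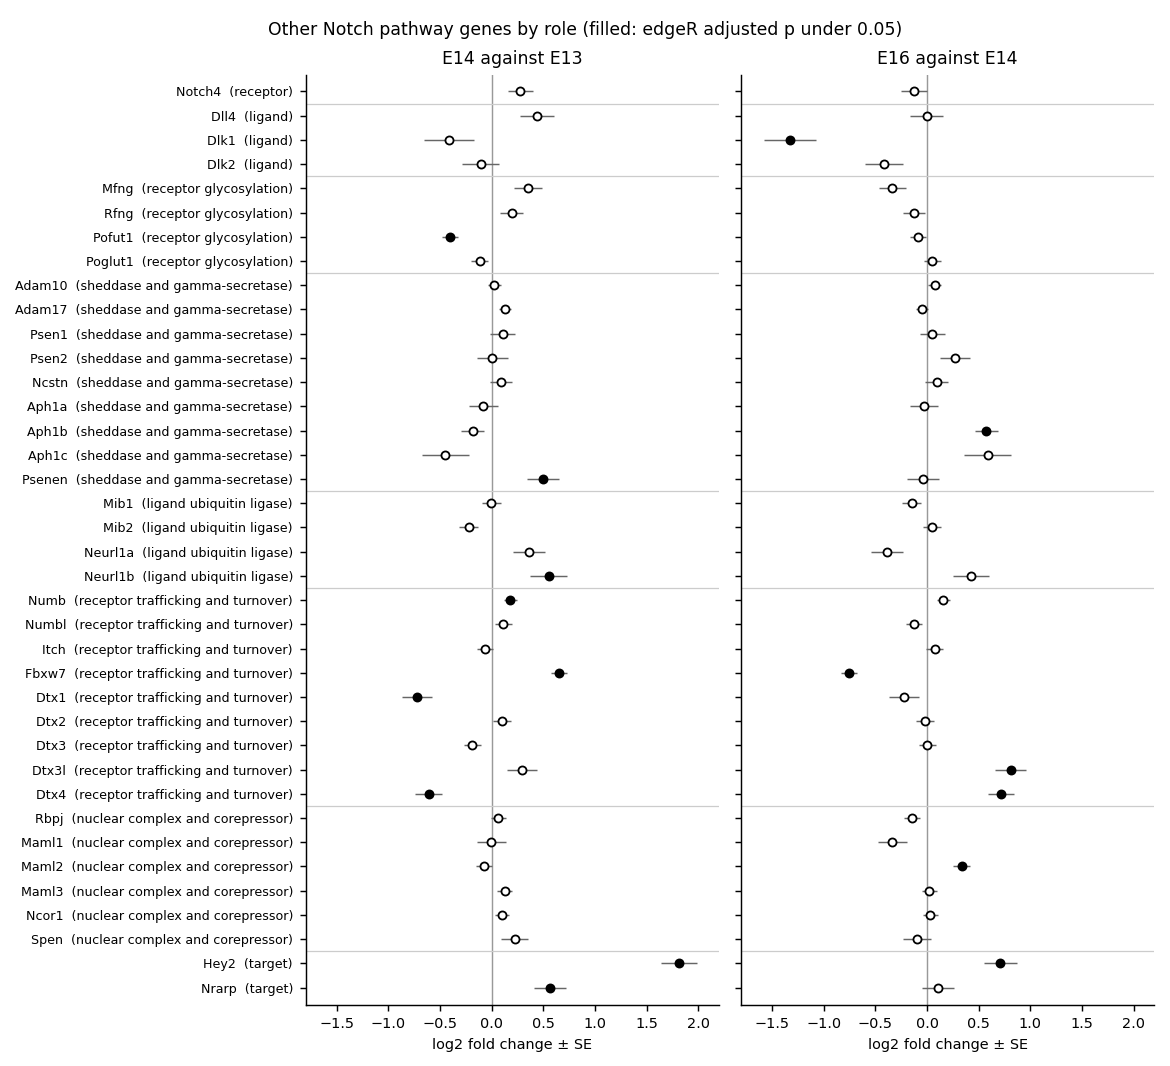
Log2 fold changes with their SE for the 38 other Notch pathway genes that passed the filter, grouped by role, for E14 against E13 (left) and E16 against E14 (right). Filled circles have an edgeR adjusted p under 0.05, with Hey2 rising at both steps and Fbxw7 and Dtx4 changing direction between them.

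The 6 teeth of E15 were compared with E13 and E16 within the table of estimated counts, where E15 teeth carry labels and a protocol text of another form, so that stage and handling cannot be told apart. Between E13 and E15, Notch1, Heyl, and Lfng rose and no member fell, against 26.8% of 13447 genes (18.3% higher, 8.49% lower). Notch1 was at 174, 189, and 206 CPM at E13 and at 244, 321, and 408 CPM at E15, without overlap, and rose by 0.75 ± 0.14 (adjusted p = 0.000199, edgeR). Heyl was at 3.28, 8.11, and 11.8 CPM at E13 and at 14.8, 25.1, and 39.2 CPM at E15, also without overlap, and rose by 1.72 ± 0.31 (adjusted p = 0.000207, edgeR). Lfng was at 8.27, 13.45, and 15.03 CPM at E13 and at 18.8, 29.6, and 38.4 CPM at E15, again without overlap, and rose by 1.17 ± 0.18 (adjusted p = 2.08e-05, edgeR).

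Hes1 was at 38.1, 49.1, and 54.3 CPM at E15 and differed from E13 by 0.13 ± 0.16 (adjusted p = 0.579, edgeR). Hey1 was at 16.9, 23.8, and 27.7 CPM at E15 and at 25.2, 26.7, and 35.8 CPM at E13, a difference of -0.30 ± 0.16 (adjusted p = 0.187, edgeR). Thus neither of the targets with their highest levels at E14 was called higher at E15 than at E13.

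From E15 to E16, 1 of the 10 members rose, which was Notch2, against 6.33% of all genes (3.64% higher, 2.69% lower), and 2 rose without the E16 left tooth of embryo 3, against 10.3% (6.00% higher, 4.30% lower). Notch2 was at 412, 502, and 594 CPM at E15 and at 375, 764, and 846 CPM at E16, the lowest E16 value being that of the left tooth of embryo 3. It rose by 0.56 ± 0.14 (adjusted p = 0.014, edgeR), and without that tooth by 0.67 ± 0.08 (adjusted p = 1.02e-05, edgeR), with Lfng then rising too (0.52 ± 0.15, adjusted p = 0.0266, edgeR). The call of Notch2 was lost when teeth of an embryo were summed (adjusted p = 0.0567, edgeR).

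Of the other pathway genes, 33 could be tested in this table, of which 6 rose and 3 fell between E13 and E15 (26.8% of all genes called), and 1 rose and none fell between E15 and E16 (6.33% of all genes called). The latter was Hey2, at 1.78 to 3.44 CPM at E13, 3.45 to 8.99 CPM at E15, and 10.8 to 17.1 CPM at E16, without overlap between stages. It was 2.33-fold higher at E15 than at E13 (log2 1.22 ± 0.22, adjusted p = 0.000149, edgeR) and 2.43-fold higher at E16 than at E15 (log2 1.28 ± 0.21, adjusted p = 0.000309, edgeR). Fbxw7, which like Hes1 was highest at E14, was at 46.7 to 56.9 CPM at E15 and differed from E13 by 0.02 ± 0.08 (adjusted p = 0.881, edgeR). Dll4 rose by 0.65 ± 0.18 from E13 to E15 (adjusted p = 0.0092, edgeR), and Dlk1 fell by 0.89 (SE 0.28, adjusted p = 0.0228, edgeR).

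The E15 teeth varied widely in some members. Notch3 was at 180 to 185 CPM in 3 teeth and at 276 to 368 CPM in the other 3, Jag2 ranged from 56.6 to 152 CPM, and Dll1 from 0.852 to 5.19 CPM. The coefficient of variation of Jag2 was 35.7% at E15 and 20.2% at E13. In the same table, E16 against E13 gave the same 6 calls as the count table, with Notch1, Notch2, Jag2, Heyl, and Lfng higher and Jag1 lower, against 36.4% of its genes (21.7% higher, 14.7% lower). Without the E16 left tooth of embryo 3 these were also 6, against 42.3% (24.0% higher, 18.4% lower). Over the alternatives of this comparison, run with edgeR or DESeq2, the adjusted p reached 0.227 for Jag1 and 0.105 for Heyl. The E16 teeth and the E13 teeth with a given embryo are the same in both tables, so the shared calls are not independent.

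**Figure D5:**
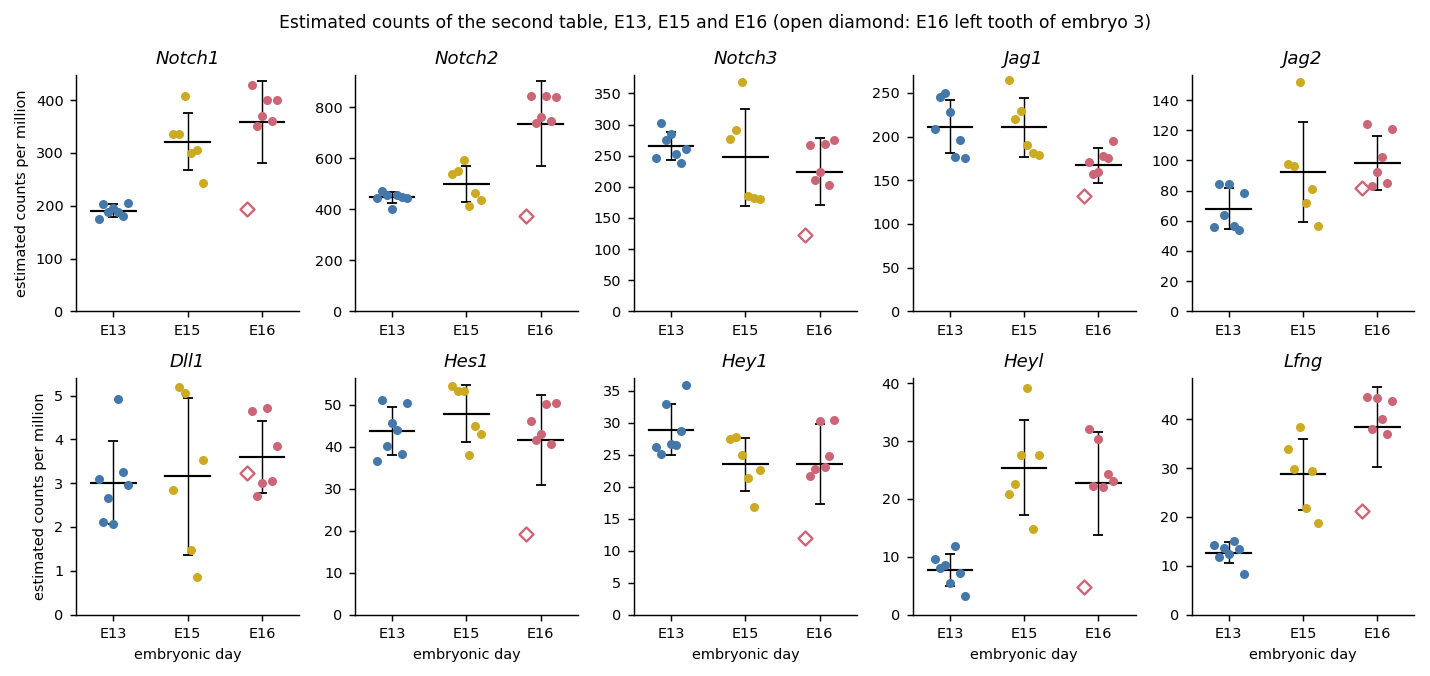
Estimated counts-per-million (vertical axis, from 0) of the 10 Notch genes in the second table, for 7 teeth of E13, 6 of E15, and 7 of E16, with means as horizontal lines, SD as error bars, and the E16 left tooth of embryo 3 as an open diamond. Notch1, Heyl, and Lfng are higher in all E15 teeth than in all E13 teeth, while Notch2 is highest in 6 of 7 E16 teeth.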

How the data were processed

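Each RNAseq library came from a single mouse first molar (E13, E14, and E16 with 7 teeth per stage, and E15 with 6, while a further E15 tooth was not analysed here). The deposited counts are whole numbers per gene without normalization, for which the authors used HTSeq on reads that STAR had placed on GRCm38, after quality steps with FastQC, AfterQC, and Trimmomatic. A second deposited table holds estimated counts of 14185 genes made with Salmon (version 0.99.0 in the submitters' processing notes), also in whole numbers. Its index and choice of genes, and the strand setting of either table, are not given in the sources used here.

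Tests on counts were quasi-likelihood F tests in edgeR (version 4.0.16, R 4.3.3), with TMM normalization, filterByExpr, and a factor for stage in 1 fit of all 21 libraries, and of the 20 libraries of the second table separately. The SE was taken as the log2 fold change divided by the square root of F. The p values measure the spread between teeth, and teeth that share an embryo are not independent. Gene positions and exon lengths were taken from GENCODE M21, in which 147 identifiers were absent. The edgeR test was tested on simulated data. The Notch genes, the pathway list, and the marker lists were chosen with earlier results of these data known, and some genes of the lists are not reported here and were left out of their counts and sums. All 10 members are named, and of the other pathway genes up to 4 of those called with the smallest adjusted p in each direction of a comparison. Rbpj, Dll3, Dll4, Hes5, Mfng, Notch4, and Rfng were named in addition, after their values were seen. The alternatives were DESeq2 (version 1.42.0), RLE size factors, no filter beyond any count, protein-coding genes alone, the compared stages alone, teeth of an embryo summed, embryo number as a replicate block, side as a factor, the second table, other gene lengths and scaling, and each tooth left out in turn. No pair of teeth within a stage matched within sampling noise (lowest chi-square per degree of freedom 7.74 over 63 pairs). Other data types of the study were not analysed here.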

Additional observations from a re-analysis of the deposited data

Results flagged for a closer look

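In 7 of 40 groups of teeth, each a member at 1 stage, the lowest tooth lay farther from the others than Dixon's limit for a group of that size, where chance gives about 1 in 20 groups, or 2. In 5 of them this was the E16 left tooth of embryo 3. It had 15.1 CPM of Hes1 (next tooth 35.5), 3.91 CPM of Heyl (next 19.4), 17.5 CPM of Lfng (next 32.0), 156 CPM of Notch1 (next 311), and 285 CPM of Notch2 (next 618). These 5 values come from 1 library and are not independent of each other. The others were at E13, with 8.07 CPM of Lfng (next 11.3) in the left tooth whose embryo is not given, and 330 CPM of Notch2 (next 365) in the right tooth of embryo 5.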

How the results depend on the processing

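Of 1380 values of single members under an alternative, 1307 kept their direction and side of the threshold, 12 passed only there, 30 no longer passed (24 of them Jag1 at E16 against E14), and 31 had the other sign. Those 31 belong to 10 differences that were not called, and none of the 31 passed (lowest adjusted p = 0.666, edgeR). With a tooth left out, the log2 fold change of E14 against E13 ran from -0.017 to 0.022 for Notch2 and from -0.068 to 0.0074 for Notch3, and that of E16 against E13 from -0.14 to 0.046 for Hes1. That of E15 against E13 ran from -0.082 to 0.038 for Jag1 and from -0.14 to 0.26 for Dll1. That of E16 against E15 ran from -0.22 to 0.0089 for Notch3, from -0.017 to 0.29 for Jag2, from -0.0088 to 0.39 for Dll1, from -0.073 to 0.12 for Hey1, and from -0.28 to 0.016 for Heyl, and Hey1 was at -0.083 with teeth of an embryo summed. Notch2 at E14 against E13 was at -9.68e-05 with genes of any count. Members called at E14 against E13 numbered 4, and 3 to 5 with a tooth left out. Those at E16 against E14 numbered 4 (3 to 7 with a tooth left out, 7 without the E16 left tooth of embryo 3). At E16 against E13 they were 6 throughout these refits. In the table of estimated counts, E15 against E13 gave 3 (3 to 4 with a tooth left out) and E16 against E15 gave 1 (1 to 2), or 0 with teeth of an embryo summed. Other pathway genes called at E14 against E13 numbered 9, but 16 with the compared stages alone and 6 to 15 with a tooth left out. Those at E16 against E14 numbered 7, but 13 with protein-coding genes alone and 7 to 14 with a tooth left out, and those at E16 against E13 numbered 13, or 11 to 24. The calls over all genes moved as well. At E14 against E13, 2150 of 19101 genes were higher and 1617 lower. These were 3128 and 2513 of 18100 with the compared stages alone. Without the E16 left tooth of embryo 3 they were 3207 and 2648 of 19238. At E16 against E14, 2780 of 14576 protein-coding genes were higher and 2175 lower. The order of levels per kilobase held in 126 of 135 pairs of members with the longest transcript as length, and that of the shares in 25 of 27.

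With the embryo number as a replicate block, 2 members were called at E14 against E13, Hes1 (0.50, adjusted p = 0.102, edgeR) and Heyl (1.04, adjusted p = 0.0594, edgeR) not passing, 6 other pathway genes were called there, and 0 members at E16 against E15. Over all genes, the block left 1093 of 19101 higher and 584 lower at E14 against E13. At E16 against E15, 429 of 13447 were higher and 371 lower with it. Also with the block, Notch2 was at -0.0096 at E14 against E13 and Notch3 at 0.043 at E16 against E15, neither being called. Embryos of different stages cannot be the same animal. Of 15 pairs with the same number in different stages, 3 had a correlation of their deviations over 0.1 (median 0.04). Of 132 pairs with different numbers in different stages, 10 did (median -0.004). Among 3 pairs of the same embryo and stage 1 did (median -0.07), and of 60 pairs with different numbers in the same stage also 1 (median -0.18). Deviations from a shared stage mean tend to be negatively correlated, so pairs within a stage compare only with each other. With 3 pairs of the same embryo and stage, the correlations cannot show whether the numbers pair the teeth.

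Depth limits Dll1 most, with fewer than 106 counts per tooth, and for the other members the spread between teeth sets the precision.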
